A study of Homo sapiens with 32 samples.

Results

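The peaks described here are the 174 merged m6A peaks that stood far above input in every RNA preparation of the study. A peak was taken when log2((IP CPM + 1)/(input CPM + 1)), called the log2 ratio below, was 2 or more in each of the 16 RNA preparations, so that at least about 4 times as many normalised reads were counted in the m6A antibody library (IP) as in the matched input library. CPM are the read counts of a library scaled to a common total. The rule was applied to the 21539 peaks, in 7483 genes, that start above position 151 in genes with 1 to 9 listed peaks, called eligible peaks. The 174 members lay in 172 genes and made up 0.808% of the eligible peaks; the whole table lists 26104 peaks in 7986 genes. The members were chosen on measured ratios. High ratios and their presence at every stage are therefore the criterion, and no test is attached to them.

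H1 and MEL1, established lines of human embryonic stem cells, were carried through directed differentiation towards pancreatic β-cells. Preparations were made from undifferentiated cells (S0), posterior foregut (S3), pancreatic progenitors (S4) and β-like cells (S6), with 2 replicates for each line and stage, and each preparation gave 1 input and 1 IP library. Cells past S0 had received the growth factors and inhibitors of the differentiation protocol, so stage and these factors cannot be told apart. No other treatment and no genetic change is named for these samples, and each group is a mixed culture at its stage. The authors describe the replicates as independent biological samples, and the labels do not say whether they were separate differentiations. The p-values below measure only the spread between these preparations.

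m6A is a methyl group on adenosine inside messenger RNA. It is placed by a complex of METTL3 and METTL14, mostly within a short DRACH sequence context and often in long exons and near the stop codon, and it is bound by reader proteins such as the YTH family that affect the decay, splicing and translation of the transcript. In IP sequencing, fragmented mRNA is enriched with an antibody against m6A, and the ratio to input is a relative measure of methylation at a site. No base sequence of the peaks was used here, so the motif could not be examined.

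Input libraries held 2652830 to 6879256 counted reads and IP libraries 2378881 to 15674899. The shallowest were the IP libraries of MEL1 S4. Mitochondrially encoded genes took 11.6% to 41.0% of input reads and at most 2.25% of IP reads. In the input counts, the summed level of the 9 undifferentiated markers with a listed peak was 4215 to 4670 CPM at S0 and 507 to 2317 CPM at the later stages. That of the 8 foregut markers was at most 14.9 CPM at S0 and 1082 to 3110 CPM at S3. It was 686 to 1445 CPM at S4, which overlapped S3, and 587 to 738 CPM at S6. The 3 β-cell markers with a listed peak reached 711 to 1126 CPM at S6, against 49.4 to 258 CPM at S0, and at S4 their 75.8 to 813 CPM overlapped S6. The 5 pancreatic progenitor markers with a listed peak had 13.0 to 18.8 CPM at S0, 41.6 to 117 CPM at S3, 40.3 to 143 CPM at S4 and 47.0 to 149 CPM at S6, so that they did not separate S3, S4 and S6. Markers of hepatic cells were present as well, at 1.31 to 18.3 CPM at S0 and 501 to 40394 CPM at S3. They had 214 to 66882 CPM at S4 and 437 to 7493 CPM at S6, and their part in the results was not tested. In such bulk samples, fewer cells of a type and less RNA per cell cannot be told apart.

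One preparation had the lowest ratios, in the members and in strongly enriched peaks generally. In H1 S4 replicate 2 the median member log2 ratio was 2.41, against 3.31 in H1 S4 replicate 1 and 2.81 to 3.59 in the other 14 preparations. The 90th percentile of all eligible peaks was 1.64 there, against 2.19 to 2.78 elsewhere, and 1322 eligible peaks passed the limit, against 2602 to 5038. It was the lowest preparation for 79 of the 174 members (45.4%). Without it 395 peaks would have met the rule, whereas leaving out any other single preparation gave 174 to 204. The difference lay in the input: the members' input level, as log2(CPM + 1), was a median 0.89 higher in replicate 2 than in replicate 1, and higher in 173 of 174, while their IP level differed by a median of 0.05. Over all eligible peaks the input difference was 0.10. H1 S4 replicate 2 therefore decided which peaks are members more than any other preparation did.

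The log2 ratio of the members, averaged over the 16 preparations, ran from 2.51 to 4.08 with a median of 3.14, against a median of 0.31 over the eligible peaks. The members were well covered on the IP side, with a median over peaks of 1650 IP reads in the median library and never fewer than 13 reads. Their input side was thinner, at a median of 60 reads. For 32 members at least 1 input library held 3 reads or fewer, and for 11 members at least 1 input library held none, so their ratios rest on the pseudocount of 1 CPM there. The number of peaks past the limit depended on what CPM are taken over: it was 69 with mitochondrially encoded genes left out of the totals, all of them among the 174, and 101 with TMM-scaled totals, of which 77 were. Only 6718 eligible peaks had the 3 IP CPM in every library that the rule needs, and the members were 2.59% of these.

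**Figure D1:**
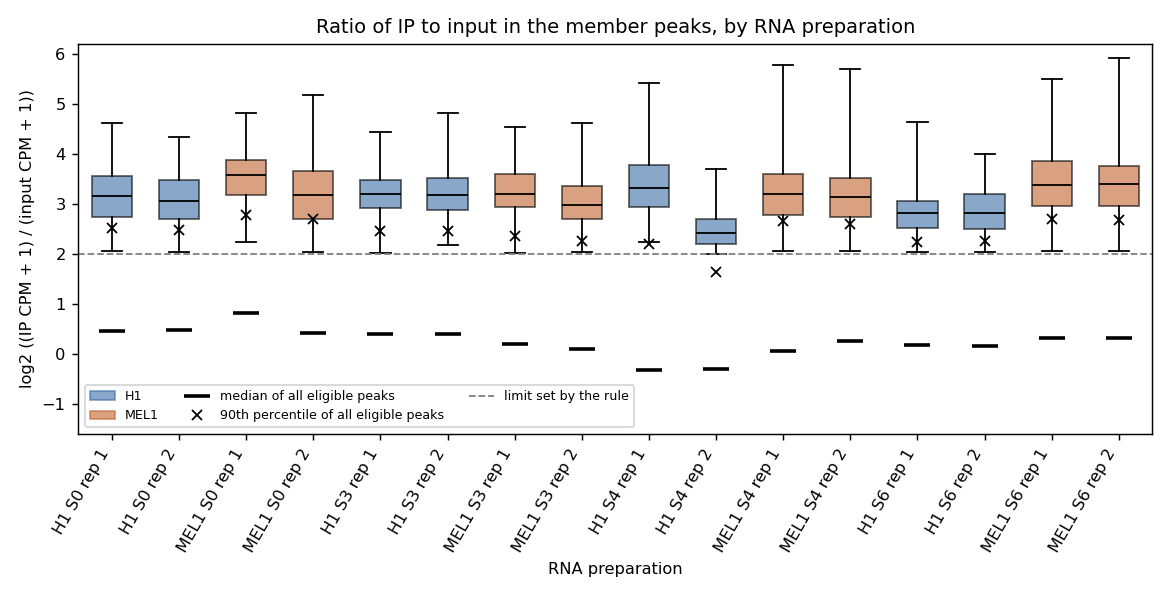
Log2 ratio of IP to input (vertical axis) of the 174 member peaks in each of the 16 RNA preparations (horizontal axis); boxes give the quartiles, the line in a box the median, and whiskers the lowest and highest member. Black bars give the median and crosses the 90th percentile of the 21539 eligible peaks. The box of H1 S4 replicate 2 sits lowest, with a median of 2.41.

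The highest mean ratio belonged to a peak of EXOSC6, which encodes a subunit of the RNA exosome, the complex that degrades and trims RNA from its 3′ end. The peak starts at position 4004 and is the only one listed for the gene. Its log2 ratio was 3.97, 3.62, 4.74 and 3.92 at S0 in H1 replicates 1 and 2 and MEL1 replicates 1 and 2, respectively. At S3 it was 3.95, 3.95, 4.54 and 3.29 in the same order. It was 5.18, 3.57, 4.65 and 3.79 at S4 and 3.83, 3.56, 4.16 and 4.50 at S6. All 16 values were above 3, and the stages overlapped. The mean was 4.08 ± 0.51 (SD, n = 16), with a lowest value of 3.29, the highest lowest value of any member.

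The peaks with the next highest means were in NUDCD3 (3.94 ± 0.62), which encodes a co-chaperone linked to dynein, ASH1L-AS1 (3.90 ± 0.76), a long noncoding RNA, CNNM2 (3.85 ± 0.76), a membrane protein linked to magnesium transport, and FOXK2 (3.85 ± 0.59), a forkhead transcription factor (SD, n = 16 each). ASH1L-AS1 and CNNM2 held 0 reads in at least 1 input library, and their median input counts were 9 and 4. The FOXK2 peak, at position 6751, held between 2.08 in H1 S4 replicate 2 and 4.68 in MEL1 S0 replicate 1, and its other 14 values lay from 3.40 to 4.51. A single preparation thus set its lowest value.

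The steadiest members over the 16 preparations were a peak of ZDHHC3, a palmitoyltransferase of the Golgi, with an SD of 0.30 and values from 2.15 to 3.14. The next were HPS6, a subunit of the BLOC-2 complex of lysosome-related organelles (SD 0.31, range 0.85), NAA40, which acetylates the N termini of histones H4 and H2A (SD 0.32), ZBED1 (SD 0.33) and TRO, which encodes trophinin (SD 0.33, 2.10 to 3.42). TRO has 7 listed peaks, and the authors name it among their most significantly hypomethylated transcripts. Its SD here describes the peak at 5551 alone. Over all members, the median absolute difference between the replicates of a line and stage was 0.19 in H1 S0 to 0.87 in H1 S4.

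Among the most variable members were peaks of UBE3A (SD 0.93), SOWAHB (0.89), GOSR1 (0.85) and TRPS1 (0.79). UBE3A encodes a ubiquitin ligase. Its peak at position 8214 had log2 ratios of 2.36 and 2.63 at S0, 2.97 and 2.70 at S3, 3.06 and 2.09 at S4 and 2.33 and 2.11 at S6 in H1 replicates 1 and 2. In MEL1 they were 4.35 and 3.83, 3.78 and 3.22, 5.06 and 3.13, and 3.93 and 4.81 at the same stages. The 8 MEL1 values lay above the 8 H1 values with CPM from column totals, whereas with TMM-scaled library sizes the MEL1 values at S4 went down to 2.34 and overlapped the H1 values there, which reached 3.22. At the other 3 stages MEL1 was the higher of the lines under both. The input count was low in this peak, with a median of 19 reads.

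**Figure D2:**
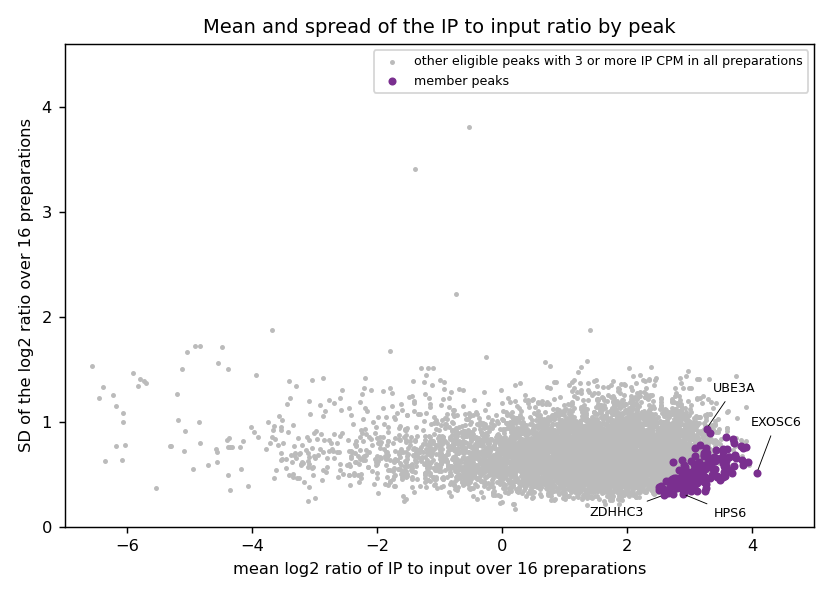
Mean (horizontal axis) and SD (vertical axis) of the log2 ratio of IP to input over the 16 preparations, 1 point a peak, for the 174 members and for the other eligible peaks with at least 3 IP CPM in every library. Members sit at means of 2.51 to 4.08, which the rule sets, and at SDs of 0.30 to 0.93.

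Over the members, the median SD of the log2 ratio was 0.50, against 0.86 over eligible peaks and 0.68 over the 6718 with enough IP reads, a difference the rule favours since it admits no low value. Within each preparation, the members lay at a median percentile of 96.6 among the eligible peaks and never below percentile 80.7, and 68 of the 174 were among the top 10% in all 16.

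Just inside the limit were peaks of GRWD1, NAA40 and LIN54, with lowest values of 2.0001, 2.001 and 2.005. Just outside were peaks of ZNF823 (1.991), OGFOD3 (1.994) and the gene with identifier ENSG00000284755.1 (1.996). All of these except ZNF823 had their lowest value in H1 S4 replicate 2, so membership near the limit rests on that preparation.

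The count of 174 includes reads that were listed more than once. In 3 pairs of member rows the counts differed by less than 10%: SCAF8 at 4151 with TIAM2 at 201, FAM156A at 1859 with FAM156B at 3501, and the 2 listed copies of the pseudoautosomal gene ZBED1 at 306. Counting each pair once leaves 171. The member peaks of INKA2 and COG8 had a near-identical row in a gene outside the members. RPL36A-HNRNPH2 is a read-through of neighbouring genes. The libraries were made with a stranded kit, but the counting is not stated to use strand. Rows of A1BG-AS1, ASH1L-AS1 and other antisense genes may therefore hold reads of their partners. Values of these rows are uncertain in their gene name.

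The positions below are those listed in the deposited table; their direction along the transcript is not stated with the counts, and no genome coordinates are given. Member peaks started at 165 to 12909 with a median of 2151, and eligible peaks at a median of 2301. Starts were spread along the transcripts like those of eligible peaks: 7.47% of members started at or before position 500, against 8.59%, and 5.17% after 8000, against 4.35%. The members differed more in how many peaks their gene had. For 40 of 174 (23.0%) the member was the only listed peak of its gene, against 9.79% of eligible peaks, and 10.9% were in genes with 7 to 9 peaks, against 19.2%. In genes with several peaks, the member was the last listed in 33.6%, against 27.7%, and the first listed in 24.6%, against 23.0%. A peak is more readily first or last in a gene with few peaks, where members were more common.

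The genes of the members had 407 other listed peaks, in 131 genes. The median of their mean log2 ratio was 0.74, 106 had a mean below 0, and 63 had a mean of 2 or more. In 128 of 132 genes with more than 1 peak, the highest mean ratio was that of a member, as the rule makes likely. Strong enrichment was thus at 1 listed position in most of these transcripts. PGBD2, a gene derived from a piggyBac transposase, was one of 2 genes with 2 member peaks, at 1351 (mean 3.60) and 1801 (mean 2.67).

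By RefSeq annotation (assembly GRCh38.p14), the member genes had a median genomic span of 14560 bases, against 27349 for the genes with an eligible peak. Spans under 5 kb were found for 37 of 172 member genes (21.5%), against 10.99%, and spans over 100 kb for 16.3%, against 16.7%. The short ones included HPS6 (2688 bases), MARS2 (3027), SOWAHB (3993), IER2 (4501) and FZD7 (4587). In 4 member genes, FBXL15 among them, a listed start lies past the RefSeq span, so the table and this annotation differ there. Restricting the comparison to genes with at least 3 IP CPM in every library left the share under 5 kb at 10.1%. Protein-coding genes made up 94.2% of the members' genes and 94.9% of those with an eligible peak. Another 6 were long noncoding RNAs and 4 were pseudogenes.

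**Figure D3:**
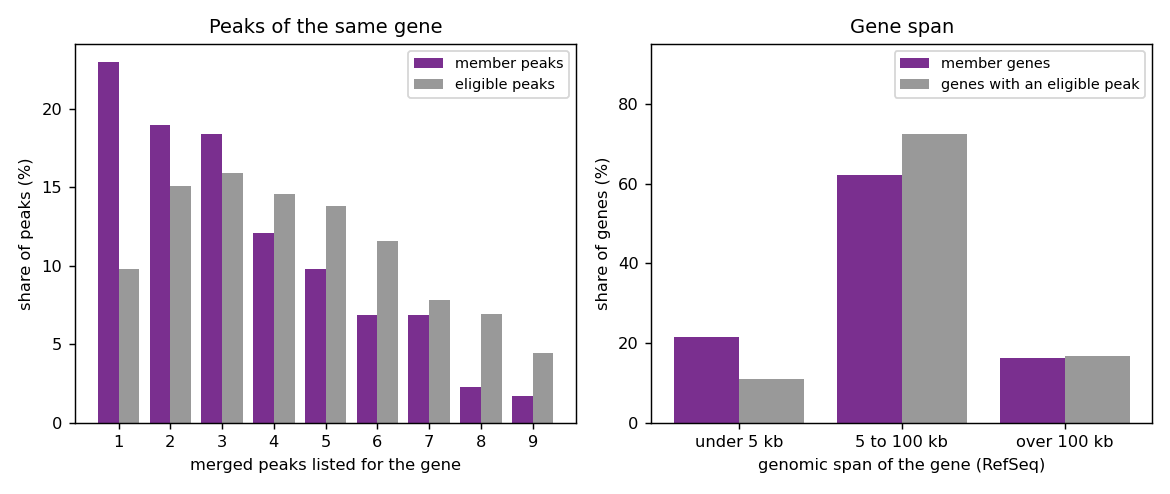
Left, share of peaks (vertical axis, %) by the number of merged peaks listed for the gene, for the 174 member and the 21539 eligible peaks. Right, share of genes (vertical axis, %) by genomic span in RefSeq. Members were more often the only peak of their gene (23.0% against 9.79%) and more often in genes under 5 kb (21.5% against 10.99%).

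Of all genes with an eligible peak, 2.29% held a member, and the gene lists are read against that share. In the signalling lists, where such a share is under 1 gene, the Wnt list had a member in 2 of its 30 genes and the Notch, Hedgehog and FGF list in none of its 30. The Wnt genes were FZD7, a Wnt receptor, at 1601 (mean ratio 3.04 ± 0.41) and ROR2, a receptor for non-canonical Wnt ligands, at 1119 (2.86 ± 0.42). BMPR1A, a type I receptor for bone morphogenetic proteins, was the member of the TGF-beta, BMP and activin list of 28 genes, at 2251 (3.08 ± 0.52; SD, n = 16 for all). For BMPR1A, the H1 values were 2.91 and 2.95 at S0 and 3.44 and 3.37 at S3, and the MEL1 values 2.81 and 3.50 and then 3.22 and 3.14. At S4 the H1 values were 2.26 and 2.11 and the MEL1 values 3.45 and 3.82, and at S6 they were 2.77 and 2.27 against 3.61 and 3.56. The lines overlapped at S0, H1 was the higher at S3, and MEL1 was the higher at S4 and S6. The order at S4 and S6 was that of TMM-scaled library sizes and of CPM without mitochondrially encoded genes as well, while at S3 the lines overlapped without those genes.

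Among 42 immediate early and short-lived regulators with an eligible peak, IER2, an immediate early gene, and SPRY1, an antagonist of receptor tyrosine kinase signalling, had a member. A hand-made list of ubiquitin ligases and deubiquitinases, which does not hold the whole class, had a member in 4 of its 39 genes with an eligible peak (10.3%, against 2.29% of all such genes). Member genes outside it include FBXL15, an F-box protein, so the share describes that list alone. Those in it were KLHL36, an adaptor of cullin-3 ligases, MDM4, a partner of MDM2 in the control of p53, UBE3A and ZNRF1. Zinc-finger genes named ZNF had 5 with a member of 280 (1.79%). No member was found among the 13 genes of the m6A machinery with an eligible peak, the 44 Polycomb and chromatin regulators or the 18 housekeeping and translation genes, whose peaks had a median mean ratio of -3.96. The lists were chosen with earlier results known and their shares are descriptions.

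By stage, the mean of the preparation medians of the member log2 ratio was 3.24 ± 0.24 in the S0 preparations, 3.14 ± 0.11 in S3, 3.01 ± 0.41 in S4 and 3.10 ± 0.33 in those of S6 (SD, n = 4 each). The differences between stages were smaller than the spread between preparations, and the place of S4 rested on H1 S4 replicate 2: without it the S4 mean was 3.21 ± 0.092 (SD, n = 3), above S3 and S6. The eligible peaks as a whole went from 0.54 ± 0.19 at S0 to 0.27 ± 0.15, -0.08 ± 0.28 and 0.24 ± 0.09. S0 was the stage of the highest mean ratio for 71 members (40.8%; 49.8% of eligible peaks) and S4 that of the lowest for 75 (43.1%; 46.3%). Without H1 S4 replicate 2, S4 was the lowest for 43 and the highest for 63, as many as S0. With mitochondrially encoded genes left out of the CPM, the stage means were 2.77, 2.84, 2.78 and 2.91 from S0 to S6, and the order of the stages was no longer the same.

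Changes between stages were tested in all 26104 peaks with edgeR's quasi-likelihood test, by asking whether the IP changed differently from the input. A call needs a change of 2-fold or more and a p under 0.1 after Benjamini-Hochberg adjustment. Since the members were required to be high at every stage, their counts are descriptions. The test misses many changes: in simulated counts with a log2 change of 2 at S4 against S3 it found 55 of 200 changed peaks. A count of no members called therefore does not show that none changed. At S3 against S0 no member was called, where 0.0498% of all peaks were, and none had an unadjusted p under 0.05 (6.19% of all). None was called at S4 against S3, where 6.6% of all peaks were called, with 8 members (4.598%) at an unadjusted p under 0.05, against 18.3% of all peaks. DESeq2 called 1 member there, higher, and 7.74% of all peaks. At S6 against S0 none was called, against 1.26%, with 1 at an unadjusted p under 0.05 (12.8% of all). DESeq2 called no member at S6 against S0, where it called 6.03% of all peaks, and none at S3 against S0, where it called 0.640%.

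At S6 against S4, 7.58% of all peaks were called and 1 member was: RPL36A-HNRNPH2 at 351. Its log2 ratio was 3.05, 2.86, 3.77 and 3.41 at S0 and 2.77, 2.90, 2.79 and 2.35 at S3 in H1 replicates 1 and 2 and MEL1 replicates 1 and 2. It was 4.83, 3.64, 4.34 and 2.97 at S4 and 2.05, 2.16, 2.93 and 2.67 at S6. The 4 values at S4 lay above those at S6 with CPM from column totals, whereas with TMM-scaled library sizes the lowest S4 value was 2.05, below the S6 values of up to 2.34. Its ratio fell by 1.67 on the log2 scale (SE 0.49, adjusted p = 0.048 with edgeR's quasi-likelihood test), and it was not called without H1 S4 replicate 1, without either H1 S6 replicate or without MEL1 S6 replicate 2. With the RNA preparation as a block, which pairs each IP with its input, 2 members were called lower at S4 against S3, and 2 higher and 1 lower at S6 against S4, where 7.29% and 6.82% of all peaks were called.

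Fitted changes of the members stayed within 2-fold in 171 of 174 from S0 to S3, 162 from S3 to S4, 164 from S4 to S6 and 170 from S0 to S6. Over all peaks the shares within 2-fold were 70.9%, 56.9%, 53.7% and 64.3%. The median member change was 0.11, -0.33, 0.16 and -0.04 (log2) in these comparisons, against -0.20, -0.36, 0.19 and -0.35 over all peaks. The sign at S4 depended on the scaling: with RLE size factors the medians at S4 against S3 were 0.13 for members and 0.12 for all peaks, and at S6 against S4 they were -0.16 and -0.15. In both comparisons the median of the members and that of all peaks had the same sign under either scaling with all preparations. Without H1 S4 replicate 2, the member medians were -0.19 from S3 to S4 and 0.03 from S4 to S6, against -0.37 and 0.22 over all peaks, and 167 and 163 members stayed within 2-fold. Without replicate 1 they were -0.15 and 0.30, against 0.03 and 0.08 over all peaks, so that the signs then differed from S3 to S4.

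Between the lines, the mean of the preparation medians was 2.99 ± 0.30 in H1 and 3.25 ± 0.19 in MEL1 (SD, n = 8 each), and the mean ratio of a member was higher in MEL1 for 137 of 174 (78.7%, against 62.6% of eligible peaks). MEL1 was higher in 67.8% of members at S0, 44.3% at S3 and 63.2% at S4, where the shares of eligible peaks were 56.8%, 40.7% and 62.6%. At S6 it was higher in 161 members (92.5%), against 64.0% of eligible peaks. The count of 110 members at S4 was 67 without H1 S4 replicate 2 and 153 without replicate 1. This order depended on the scaling, since with TMM-scaled library sizes the means were 2.97 in H1 and 2.74 in MEL1. In the fitted test of the line difference, 4.16% of all peaks and no member were called by edgeR, with 15 members (8.62%) at an unadjusted p under 0.05, against 16.6% of all peaks. DESeq2 called 2, both higher in MEL1, and 8.51% of all peaks. With the RNA preparation as a block 3 members were called, 1 higher and 2 lower in MEL1, and 8.05% of all peaks. With edgeR's filterByExpr 1 was called, lower (4.22% of all), and after thinning of the IP libraries 1, higher (4.45% of all). The median member difference of MEL1 minus H1 was -0.21, against -0.18 over all peaks.

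A test of whether a stage change differed between the lines used 1 mean for each line, stage and library type and was added after the first results were seen. At S4 against S3 the change was lower in MEL1 than in H1 for 46 members and higher for none, where 29.4% of all peaks were called, 15.4% lower and 14% higher. At S6 against S4 it was higher in MEL1 for 32 members and lower for none, where 21.1% of all peaks were called, 8.8% higher and 12.3% lower. At S3 against S0, 4 members were called, all higher in MEL1 (12.2% of all peaks called, 6.25% higher and 5.92% lower), and at S6 against S0, where 6.52% of all peaks were called, 5 were higher and 1 lower (2.54% and 3.98%). The S3 against S0 count was set by single preparations: no member was called without H1 S3 replicate 1 (6.10% of all peaks) and 1 without H1 S0 replicate 1 (6.01%), 2 without H1 S3 replicate 2 or either H1 S6 replicate (6.14% to 9.55%). It was 8 without H1 S4 replicate 2 (13.2%), 9 without either MEL1 S4 replicate (15.6% each) and 16 (13 higher, 3 lower) without MEL1 S0 replicate 1, where 20.99% of all peaks were called. At S6 against S0, 2 members, both higher, were called without either H1 S0 replicate, either H1 S6 replicate or MEL1 S6 replicate 1, with 1.51% to 2.82% of all peaks. There 3 were called without either H1 S3 replicate or MEL1 S6 replicate 2 (4.398% to 5.49% of all), 9 (8 higher, 1 lower) without MEL1 S0 replicate 2 (8.68%) and 10 (9 higher, 1 lower) without H1 S4 replicate 1 (8.02%).

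Within the lines, the S4 against S3 change was called for 10 members higher and 8 lower in H1, where 31.1% of all peaks were called, 9.01% higher and 22.1% lower. In MEL1 it was called for 46 members, all lower (26.4%), where 26.6% of all peaks were called, 8.09% higher and 18.5% lower. The S6 against S4 change was called for 1 higher and 8 lower in H1 (26% of all peaks called, 18.3% higher and 7.66% lower) and for 28 higher (16.1%) and 1 lower in MEL1 (22.1% of all called, 12.1% higher and 9.99% lower). Without H1 S4 replicate 2, the calls in H1 were 37 higher (21.3%) and 1 lower at S4 against S3, where 6.76% of all peaks were higher and 18.4% lower, and 38 lower (21.8%) at S6 against S4, where 14.3% were higher and 5.65% lower. Without H1 S4 replicate 1 they were 1 higher and 7 lower, then 7 higher and 4 lower, with 20.5% and 17.1% of all peaks called. The MEL1 calls moved as well without that replicate, to 5 higher and 1 lower at S4 against S3 (17.4% of all peaks called) and 15 higher and 1 lower at S6 against S4 (19.9%), although no MEL1 library was left out. The library sizes are rescaled for each set of libraries. The median MEL1 change over all peaks at S4 against S3 went from -0.68 to 0.0085 without H1 S4 replicate 1 and stayed at -0.68 without replicate 2. Why the MEL1 calls moved was not tested.

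The S4 results turned on H1 S4. Without its replicate 1, 12 members were called higher (6.90%) and 3 lower at S4 against S3, where 17.3% of all peaks were higher and 7.24% lower, and 7 were higher and 3 lower at S6 against S4, where 4.91% of all were higher and 12.4% lower. Without its replicate 2, 79 were called lower (45.4%) at S4 against S3, where 14.1% of all peaks were lower, and 70 higher (40.2%) at S6 against S4, where 8.34% of all were higher. The median member difference at S4 against S3 was -0.80 with all preparations, 0.12 without replicate 1 and -1.36 without replicate 2, where the medians over all peaks were -0.24, 0.36 and -0.24. The sign of the member median thus changed with the H1 S4 replicate kept, while it stayed below that of all peaks in all 3 settings. With IP libraries thinned to one depth, 4 members were called higher and 9 lower (16.3% and 8.09% of all peaks), and with TMM factors within IP and within input 1 higher and 24 lower (16.7% and 11.9% of all). Leaving out any other single preparation gave 25 to 50 members called lower and none higher at S4 against S3, with 10.4% to 18.1% of all peaks lower.

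**Figure D4:**
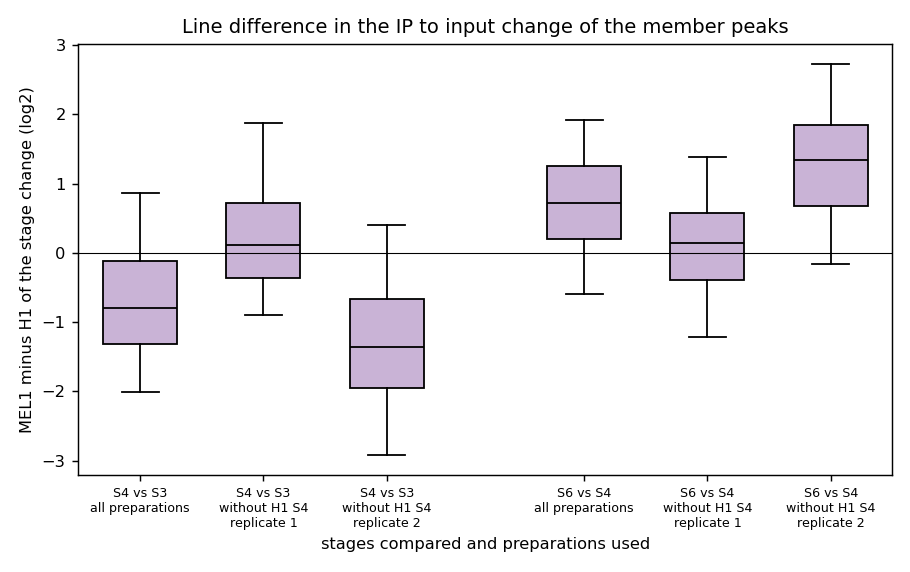
Fitted difference between MEL1 and H1 in the change of the IP to input ratio (vertical axis, log2) over the 174 members, for S4 against S3 and S6 against S4, with all preparations and without either H1 S4 replicate (horizontal axis). Boxes give the quartiles and median, whiskers the 5th and 95th percentiles; the median at S4 against S3 is -0.80 with all preparations and 0.12 without replicate 1.

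Members with the largest such differences at S4 against S3 were in SDHAF1, an assembly factor of respiratory complex II, NIP7, a ribosome biogenesis factor, and AMIGO3. The SDHAF1 peak at 351 had log2 ratios of 2.99 and 2.85 at S3 and 5.20 and 3.33 at S4 in H1 replicates 1 and 2, and 3.75 and 2.60 at S3 and 2.77 and 2.69 at S4 in MEL1. Its H1 values at S4 were above those at S3, while the MEL1 values overlapped. With TMM-scaled library sizes the MEL1 values were 1.79 and 1.92 at S4, below the 2.62 and 3.62 at S3. The fitted difference was -2.90 (SE 0.80, adjusted p = 0.010 with edgeR's quasi-likelihood test). It was 2.10 (SE 0.43, adjusted p = 0.0015) at S6 against S4 for HGH1 at 1401, with edgeR's quasi-likelihood test. There the H1 values were 4.47 and 3.65 at S4 and 2.36 and 2.73 at S6, and the MEL1 values 2.68 and 2.62 at S4 and 2.53 and 2.98 at S6. With TMM-scaled library sizes the H1 values of HGH1 were 3.88 to 4.66 at S4 and 2.41 to 2.82 at S6. Its MEL1 values were then 1.71 to 1.81 at S4 and 1.95 to 2.47 at S6, and no longer overlapped.

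FBXL15, an F-box protein of ubiquitin ligases, had a line difference at 3 of the 4 comparisons named by rule. Its only peak, at 2401, had log2 ratios of 3.89 and 4.07 at S0, 3.10 and 3.10 at S3, 3.68 and 2.73 at S4 and 2.94 and 2.75 at S6 in H1. In MEL1 it had 3.91 and 2.78, 3.88 and 3.10, 3.19 and 3.50, and 4.397 and 4.92. Both MEL1 values were above both H1 values at S6 and at S3, also with TMM-scaled library sizes and without mitochondrially encoded genes, although with CPM from column totals the nearest values of the lines at S3 both round to 3.10. At S0 and S4 the lines overlapped with CPM from column totals. With TMM-scaled sizes H1 was the higher at S0, at 3.74 to 3.92 against 2.30 to 3.13, and at S4, at 2.96 to 3.85 against 2.32 to 2.59. Without mitochondrially encoded genes H1 was the higher at S0 and the lines overlapped at S4. The difference in change from S0 to S6 was 2.38 (SE 0.51, adjusted p = 0.0096 with edgeR's quasi-likelihood test).

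The input level of the member genes, summed over all their merged peaks, was tested over 7981 genes in the 16 input libraries. Input is the denominator of the rule, so these counts are partly conditioned by it. From S0 to S3, 38 of the 172 member genes were called higher and 14 lower by edgeR's quasi-likelihood test, 52 in all, where 28.8% of all genes were called (15% higher and 13.8% lower). From S0 to S6, 24 were higher and 20 lower, where 31.4% of all genes were called, 17.5% higher and 13.9% lower. At S4 against S3, where 1.84% of all genes were called, 2 were higher and none lower (1.49% and 0.351% of all genes), and at S6 against S4, where 5.2% were, 1 was higher and 4 lower (2.86% and 2.34%). With the member peaks left out of the sums, 131 genes could be tested, of which 29 were higher and 8 lower at S3 against S0, and 25 higher and 13 lower at S6 against S0.

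ROR2 rose strongly in the input. Its summed level was 13.7, 17.1, 12.4 and 15.9 CPM at S0 and 157, 153, 226 and 251 CPM at S3 in H1 replicates 1 and 2 and MEL1 replicates 1 and 2. At S4 it was 140, 143, 94.6 and 110 CPM, and at S6 62.9, 71.2, 136 and 137 CPM. Every later value was above every S0 value. The change to S3 was 3.46 (log2, SE 0.27, adjusted p = 1.5e-07 with edgeR's quasi-likelihood test), while the log2 ratio of its member peak went from a mean of 2.81 at S0 to 3.18 at S3.

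Other genes that rose from S0 to S3 included TMEM150C (3.50, SE 0.62) and SOWAHB (3.16, SE 0.72), and from S0 to S6 SETBP1 (3.24, SE 0.31), which encodes a binding partner of the SET oncoprotein, FIGNL2 (2.91, SE 0.46), an ATPase, and HEG1 (2.89, SE 0.47), a membrane protein of vascular development.

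Genes that fell included TENT5B, a nucleotidyltransferase that extends poly(A) tails. Its level was 163, 174, 92.6 and 152 CPM at S0 and 60.4, 47.5, 87.2 and 110 CPM at S3 in the same order, then 55.6, 66.8, 43.7 and 57.8 CPM at S4 and 24.3, 34.5, 17.8 and 17.9 CPM at S6. The S6 values were below all others. It fell by 2.93 (SE 0.25) from S0 to S6 and by 1.26 (SE 0.24) from S4 to S6. UTP15, a ribosome biogenesis factor, fell by 2.79 (SE 0.52) and MARS2, the mitochondrial methionyl-tRNA synthetase, by 2.51 (SE 0.41) from S0 to S6, and CABLES1 by 2.24 (SE 0.52) and INKA2, an inhibitor of the kinase PAK4, by 1.79 (SE 0.22) from S0 to S3. IER2 fell by 1.38 (SE 0.31) to S3 and BMPR1A by 1.37 (SE 0.31) to S6. FZD7 was not called in any comparison, with changes of -0.83 to 0.27.

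At S4 against S3, TRPS1, a GATA-type repressor (1.74, SE 0.43), and C8orf58 (1.02, SE 0.24) were the 2 called genes, and the count was 0 without H1 S4 replicate 2 and without MEL1 S3 replicate 1. At S6 against S4, SFMBT1, PLEKHG3, CYREN and TENT5B were lower and FAM156B higher. Without H1 S4 replicate 2, 5 were higher and 3 lower there. The share of all genes called in that setting is not given, so this count does not single out the member genes.

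Changes in input and in the ratio were set side by side for the 174 peaks. At S3 against S0, the 38 peaks of genes called higher in input had a median input change of 1.45 and a median change of the IP to input ratio of 0.06, from -0.90 to 1.17. The 14 of genes called lower had -1.50 and 0.18, from -0.34 to 0.51. At S6 against S0, the 24 peaks of genes called higher had 1.59 and -0.08, and the 20 of genes called lower -1.37 and 0.16. Ratio changes stayed within 2-fold in 37 of the 38, in all 14, in all 24 and in all 20 of these peaks. The ratio contains the input, so the values are not independent of each other.

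**Figure D5:**
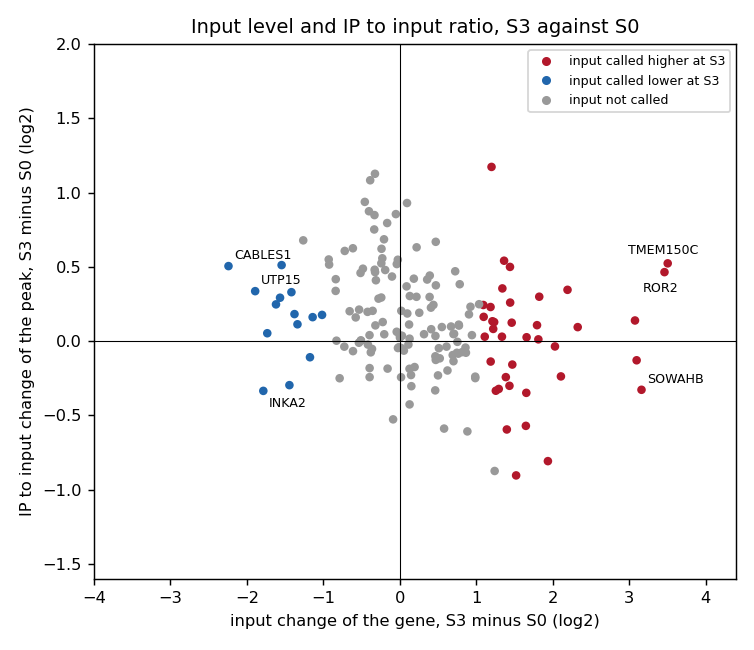
Change in the input level of the gene (horizontal axis, log2, S3 minus S0) and in the IP to input ratio of the member peak (vertical axis, log2, S3 minus S0), 1 point for each of the 174 peaks, coloured by the input call. Input changes run from -2.24 to 3.50, ratio changes from -0.90 to 1.17.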

How the data were processed

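m6A was measured by immunoprecipitation and sequencing of fragmented mRNA from 16 RNA preparations, each with an input and an IP library. The authors counted reads in 50-bp bins of each gene of Ensembl annotation 94 and called, merged and counted peaks with MeRIPtools; the aligner, its settings and the genome build are not given in the sources used here. The deposited table holds raw read counts per merged peak and library, so peaks called on these samples are counted in the same samples, and CPM were computed here from the column totals.

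The members and the gene lists were chosen with earlier results of these data known. Genes and peaks named in the text are the 5 members with the highest mean ratio and with the smallest and the largest SD, those nearest the limit, the 3 called members or genes with the largest change in each direction of a comparison and the members of the gene lists; PGBD2, CYREN, A1BG-AS1 and the rows with near-identical counts fall outside these and were named after their values were seen. 1 member that this rule names is not reported here. Changes of the IP to input ratio were tested as the interaction of stage, or line, with library type over 26104 peaks in all 32 libraries, and input changes over gene sums in the input of the 16 preparations. The tool was edgeR's quasi-likelihood test (edgeR 4.0.16, R 4.3.3) with TMM factors, a total count of at least 10 and Benjamini-Hochberg adjustment. A call needed a 2-fold change or more and p under 0.1 after adjustment. Alternatives were DESeq2 1.42.0, other size factors and filters, IP libraries thinned to 2378881 reads, the RNA preparation as a block and single preparations left out. The IP and the input of a preparation come from the same RNA, and their deviations from the replicate mean correlated between -0.1545 and 0.0452. In simulated counts with a log2 change of 2 at S4 against S3, the test of the ratio found 55 of 200 changed peaks among 26104, and the input test 187 of 200 genes among 7986. Differences that depend on few reads carry counting error, and PCR reads are not independent molecules.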

Additional observations from a re-analysis of the deposited data

Results flagged for a closer look

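In 5 of 66 groups of 4 preparations, 1 value lay far from the other 3 by Dixon's ratio of gap to range, where chance gives about 1 in 20 groups. The median member ratio at S3 was low in MEL1 S3 replicate 2, at 2.97 (Dixon ratio 0.848). ASH1L-AS1 at S0 was low in MEL1 replicate 2, at 2.63 against 4.24 to 4.56 (0.834). FOXK2 at S4 was low in H1 replicate 2, at 2.08 against 3.97 to 4.34 (0.834). TRO was high in MEL1 replicate 1 at S0, at 3.42 against 2.69 to 2.79 (0.856), and low in MEL1 replicate 2 at S3, at 2.57 against 2.85 to 2.91 (0.831).

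The ratio change differed between the lines for more members than are listed: 46 from S3 to S4, 32 from S4 to S6. These counts ran from 15 to 79 and from 10 to 70 when a preparation was left out. Those listed are the called members with the largest line differences in the change of the ratio, up to 3 in each direction. They are given as MEL1 minus H1 on the log2 scale with edgeR's quasi-likelihood test and Benjamini-Hochberg adjustment. From S0 to S3 these were RIC1 (1.73, SE 0.61, adjusted p = 0.082), CLINT1 (1.56, SE 0.43, adjusted p = 0.024) and FBXL15 (1.54, SE 0.49, adjusted p = 0.051). From S3 to S4 they were SDHAF1 (-2.90, SE 0.80, adjusted p = 0.010), NIP7 (-2.56, SE 0.88, adjusted p = 0.037) and AMIGO3 (-2.39, SE 1.02, adjusted p = 0.092).

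From S4 to S6 they were FBXL15 (2.18, SE 0.50, adjusted p = 0.0043), GPANK1 (2.16, SE 0.42, adjusted p = 9.7e-04) and HGH1 (2.10, SE 0.43, adjusted p = 0.0015), by the same edgeR test. From S0 to S6 they were FAM118A (2.64, SE 0.49, adjusted p = 0.0033), FBXL15 (2.38, SE 0.51, adjusted p = 0.0096), UTP15 (2.07, SE 0.67, adjusted p = 0.083) and RPUSD2 (-1.53, SE 0.47, adjusted p = 0.065).

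Outside the eligible peaks, 15 more peaks had a log2 ratio of 2 or more in all 16 preparations: 7 start at or before position 151 and 8 lie in genes with 10 or more listed peaks.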

How the results depend on the processing

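The number of members was 69 with CPM without mitochondrially encoded genes, 101 with TMM-scaled library sizes, 20 at a limit of 2.5, 588 at 1.5 and 337 when the same share of eligible peaks (16.5%) passed in each preparation, a limit from 1.21 to 2.36. Of these 337, 145 were among the 174. Leaving out a preparation gave 174 to 395. The preparation means were 2.77 at S0, 2.84 at S3 and 2.95 in MEL1 without mitochondrial genes, and 2.86, 3.02 and 2.74 with TMM-scaled sizes. Leaving out preparations gave 3.12 to 3.30 at S0, 3.11 to 3.19 at S3, 2.91 to 3.21 at S4, 3.00 to 3.19 at S6, 2.94 to 3.07 in H1 and 3.21 to 3.29 in MEL1.

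For the ratio at S4 against S3, DESeq2, RLE size factors, TMM within IP and within input, and thinned IP libraries each called 1 member, higher, and 6 (4 higher, 2 lower) were called without both MEL1 S4 preparations. At S6 against S4 that setting called 5, all lower. The share of all peaks called without both MEL1 S4 preparations is not given, so these counts do not single out the members. With the RNA preparation as a replicate block, 2 members, both lower, were called at S4 against S3, 3 (2 higher, 1 lower) at S6 against S4 and 3 (1 higher, 2 lower) between the lines, where DESeq2 called 2, both higher, filterByExpr 1, lower, and thinning 1, higher. Leaving out a preparation gave 0 to 0 at S3 against S0, 0 to 1 at S4 against S3, 0 to 2 at S6 against S4, 0 to 0 at S6 against S0 and 0 to 1 between the lines.

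For input, S4 against S3 gave 4 genes with DESeq2, 1 without the member peaks and 0 without MEL1 S4, and S6 against S4 gave 8 with DESeq2 and 3 without MEL1 S4. Leaving out a preparation gave 45 to 55, 0 to 3, 2 to 8 and 41 to 48 genes at S3 against S0, S4 against S3, S6 against S4 and S6 against S0. Shares of all genes called in these settings are not given, so the counts do not single out the member genes. Same-numbered input libraries of 2 stages correlated between -0.0073 and 0.0525 in H1 and between 0.0657 and 0.1286 in MEL1, all positive in MEL1. Nothing in the labels ties a number to a shared batch, so no pairing was assumed, and a replicate block on the number moved no input count by over 1.5 times.

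For the difference between lines in the stage change, S3 against S0 gave 2 with RLE, 2 with TMM within IP and within input, 1 thinned and 1 with the replicate block. S4 against S3 gave 25 (1 higher, 24 lower) with TMM within IP and within input and 13 (4 higher, 9 lower) thinned, S6 against S4 gave 16 thinned, all higher, and S6 against S0 gave 3 thinned and 2 with the replicate block. Leaving out a preparation gave 0 to 16, 15 to 79, 10 to 70 and 2 to 10 in these comparisons. The cause of these moves was not tested. Where the share of all peaks called in a setting is not given above, the counts do not single out the members. Of the values of named members and genes, 189 fell short of the threshold under an alternative, 1432 kept their call and direction, and none reversed. Thin input counts limit the precision of 32 members.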
